A study of Mus musculus with 6 samples.

Results

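Pericytes are cells embedded in the wall of capillaries and small vessels, and together with vascular smooth muscle cells they form the mural cells. The 10 genes Cspg4, Pdgfrb, Mcam, Anpep, Cd248, Abcc9, Rgs4, Rgs5, Vtn and Higd1b, widely used to mark pericytes or mural cells in general, were picked by name from the 23420 gene symbols of a count table of mouse aortic roots. All 10 were in the table and all passed the filter on low counts, as did 15096 genes in all. The aortic root joins the heart to the aorta and holds the aortic valve, and its dissection can include heart muscle, fat and small vessels. The roots of one group came from mice labelled Sost-/-, which lack both copies of the gene for the Wnt antagonist sclerostin according to the label (3 libraries, KO 1 to 3), and the others from mice labelled Sost+/+ (3 libraries, WT 1 to 3). Both groups shared the C57Bl6/J background, an age of 12 months and 8 months of high-cholesterol feeding begun at 4 months of age. The labels speak of 3 roots per group without naming animals, so p-values reflect root-to-root spread, which may be partly technical.

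Pericytes are recruited to growing vessels by PDGF-B, which endothelial cells release and which the receptor encoded by Pdgfrb binds. They keep contact with the endothelium through a shared basement membrane, and they set capillary tone partly through ATP-sensitive potassium channels. Smooth muscle cells of the aortic wall share many of these genes with pericytes but carry far more of the contractile proteins, such as smooth muscle myosin, encoded by Myh11. Most of the 10 genes are therefore not particular to pericytes: Pdgfrb, Cd248 and Anpep are also known in fibroblasts, Abcc9 in heart muscle, and Cspg4 and Mcam in smooth muscle. In whole tissue, fewer cells of a type and less RNA per cell cannot be told apart.

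Promoter sequence is shown for the gene that passed the test (Cspg4), for 2 that did not and are among the more restricted pericyte markers (Rgs5 and Vtn), and for a contractile gene that passed (Myl9). Each is the 250 bases before the transcription start, 5′ to 3′ on the gene's strand, from RefSeq on GRCm38.p6, the assembly of mm10. Capitals mark exact matches on either strand to the CArG box, TGGGAA (a core of RBPJ sites, the Notch effector) or CATTCC (a core of TEAD sites). The CArG box, bound by serum response factor, a regulator of contractile genes, was searched as CCWWWWWWGG, with W for A or T.
Cspg4 (chr9:56864854-56865103, plus strand): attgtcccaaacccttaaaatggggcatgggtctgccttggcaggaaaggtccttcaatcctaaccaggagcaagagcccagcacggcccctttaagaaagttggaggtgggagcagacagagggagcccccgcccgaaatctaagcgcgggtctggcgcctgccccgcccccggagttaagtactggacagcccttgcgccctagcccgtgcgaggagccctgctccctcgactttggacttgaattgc
Rgs5 (chr1:169655251-169655500, plus strand): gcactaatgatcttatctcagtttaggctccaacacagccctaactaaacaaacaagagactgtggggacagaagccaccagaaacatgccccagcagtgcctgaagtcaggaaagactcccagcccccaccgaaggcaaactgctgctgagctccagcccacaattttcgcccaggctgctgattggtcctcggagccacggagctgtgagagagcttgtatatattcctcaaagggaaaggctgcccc
Vtn (chr11:78498870-78499119, plus strand): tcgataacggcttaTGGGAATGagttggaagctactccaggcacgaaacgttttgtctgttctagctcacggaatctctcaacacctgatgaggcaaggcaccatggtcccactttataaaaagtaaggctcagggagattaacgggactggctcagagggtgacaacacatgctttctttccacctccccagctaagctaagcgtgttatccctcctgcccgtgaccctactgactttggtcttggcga
Myl9 (chr2:156775214-156775463, plus strand): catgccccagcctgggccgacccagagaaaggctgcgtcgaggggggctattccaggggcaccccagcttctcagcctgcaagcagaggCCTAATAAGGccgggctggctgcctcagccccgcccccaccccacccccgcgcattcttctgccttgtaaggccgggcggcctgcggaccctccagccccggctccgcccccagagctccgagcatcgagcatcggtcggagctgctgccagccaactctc
The RefSeq table held such a window for 7 of the 10 genes and for 8 of 11 contractile genes. An exact CArG match was present in 0 of the 7 and in 1 of the 8 windows, that of Myl9. It was present in 1.47% of 32851 windows of the same length over all genes. The Myl9 window shown is therefore not typical of the contractile windows. Near matches were not counted, such as CCCTATATGG in the Acta2 window. TGGGAA was present in 2 of 7 windows (Abcc9 and Vtn), against 2 of 8 contractile windows and 21.6% of all. CATTCC was present in the same 2 of 7, where it overlaps TGGGAA in the letters TGGGAATG, against 4 of 8 contractile windows and 12.6% of all. These matches describe letters in a short window and name no site in use.

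Sost itself did not follow the labels. Its count was 2284, 1063 and 513 in KO 1 to 3, against 354, 621 and 274 in WT 1 to 3, and every direction below is therefore for the library labels. Total counts were 38870673 to 41803775 in the libraries labelled Sost-/- and 37023586 to 48172863 in those labelled Sost+/+. Levels are given as CPM, counts scaled to a common library size by TMM, and were tested over all 15096 genes with edgeR's quasi-likelihood test and Benjamini-Hochberg adjustment at 0.05. The test called 385 genes, but 10 without KO replicate 3 and 0 without WT replicate 1 (2262 at an unadjusted p under 0.05), so each edgeR call below was absent without WT replicate 1.

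Of the 10 pericyte and mural genes, 1 rose in the libraries labelled Sost-/- and 0 fell, where 2.18% of all tested genes rose and 0.371% fell. The gene that rose was Cspg4. The groups did not overlap for 3 genes that were higher (Cspg4, Pdgfrb and Anpep; 14.3% of all tested genes) and for 1 that was lower (Higd1b; 11.1% of all). The log2 fold change was above 0 for 7 of the 10 and for 51.3% of all tested genes. The median log2 fold change of the 10 was 0.22, against 0.01 over all tested genes, and single values ran from -0.46 for Higd1b to 0.92 for Cspg4. DESeq2 called 4 of the 10 higher (Cspg4, Pdgfrb, Mcam and Anpep) and 0 lower, where it called 4.96% of its genes higher.

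**Figure D1:**
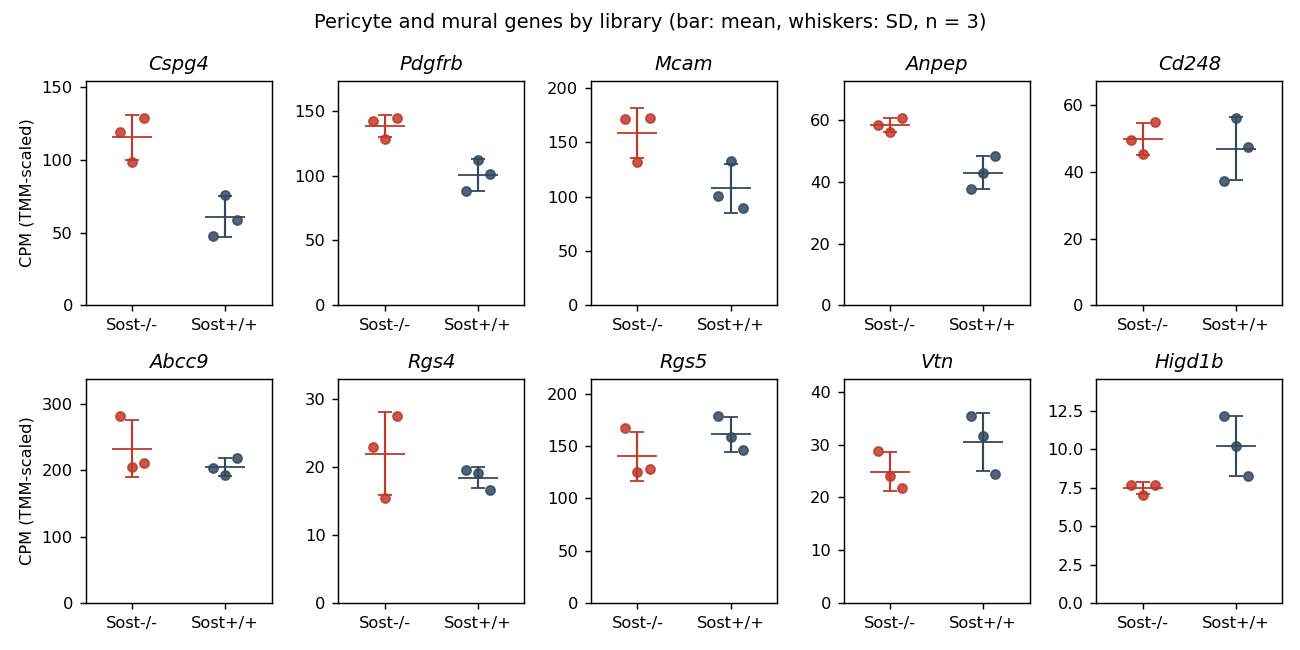
CPM of the 10 pericyte and mural genes in each library (points), with the mean (bar) and SD (whiskers) of 3 libraries labelled Sost-/- (left, red) and 3 labelled Sost+/+ (right, dark blue); each panel starts at 0. Cspg4, Pdgfrb and Anpep lie higher in every Sost-/- library than in any Sost+/+ library, Higd1b lies lower, and the groups overlap for the other 6 genes.

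Cspg4 (chr9:56865033-56899870, plus strand, mm10) encodes NG2, a large membrane proteoglycan on pericytes, smooth muscle cells and glial precursors. It was at 119, 98.5 and 129 CPM in the libraries labelled Sost-/-, against 47.9, 76.05 and 59.02 CPM in those labelled Sost+/+. The lowest library labelled Sost-/- (KO 2) lay above the highest labelled Sost+/+ (WT 2). Its level was 1.89-fold higher, a log2 fold change of 0.92 (SE 0.17) with a 95% interval of 0.55 to 1.30 (edgeR adjusted p = 0.0279, and 9.92e-06 by DESeq2). The exact two-sided permutation p was 0.1, the smallest that 3 against 3 libraries allow. The call was lost in 4 of 6 fits that left out 1 library: the adjusted p was 0.0535 without KO replicate 1, 0.124 without KO replicate 3, 0.118 without WT replicate 1 and 0.0701 without WT replicate 3, with log2 fold changes of 0.76 to 1.11 over all 6.

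Pdgfrb (chr18:61045150-61085061, plus strand) encodes the beta receptor of platelet-derived growth factor, through which pericytes are recruited and kept. Its level was 143, 129 and 144 CPM in the libraries labelled Sost-/- and 87.97, 112 and 101 CPM in those labelled Sost+/+, with no overlap. The log2 fold change of 0.46 (SE 0.11), 95% interval 0.22 to 0.71, did not pass in edgeR (adjusted p = 0.0607) and passed in DESeq2 (adjusted p = 0.00548). The adjusted p was also under the threshold in edgeR without a filter on low counts, at 0.0364.

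Of the genes of its ligands, partner receptor and the angiopoietin system, which joins pericytes to endothelium by another route, 0 of 9 passed in edgeR (2.55% of all tested genes passed). Higher without overlap were 3 of the 9 (Pdgfa, Pdgfc and Pdgfra), against 14.3% of all tested genes. Pdgfb, the endothelial ligand of the receptor, averaged 60.6 ± 9.52 CPM in the libraries labelled Sost-/- and 72.1 ± 7.90 CPM in those labelled Sost+/+ (SD, n = 3 each), a log2 fold change of -0.25 (SE 0.13). Pdgfra, the alpha receptor and a fibroblast marker, had the smallest p of the list, with 114 ± 3.66 CPM in the libraries labelled Sost-/- against 92.3 ± 1.41 CPM in those labelled Sost+/+ (log2 fold change 0.31 (SE 0.08), adjusted p = 0.0774 by edgeR and 0.0166 by DESeq2). The difference between Pdgfrb and its ligand gene was not tested.

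Mcam (chr9:44134469-44142727, plus strand) encodes CD146, an adhesion molecule of mural and endothelial cells that binds laminin containing the alpha-4 chain. Its level was 172, 132 and 172 CPM in the libraries labelled Sost-/- and 101, 133 and 89.7 CPM in those labelled Sost+/+. KO 2 and WT 2 were nearly level, and the groups overlapped there. The log2 fold change of 0.56 (SE 0.16), 95% interval 0.20 to 0.92, did not pass in edgeR (adjusted p = 0.105) and passed in DESeq2 (adjusted p = 0.0171). Lama4, the laminin alpha-4 gene, had a log2 fold change of 0.05 (SE 0.10). Mmrn2, an endothelial matrix protein that binds the product of Cd248, was at -0.09 (SE 0.13) and Fn1, the fibronectin gene, at 0.81 (SE 0.21); 0 of these 3 ligand genes passed in edgeR, and Fn1 had the smallest p (adjusted p = 0.0856, and 0.00218 by DESeq2).

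Anpep (chr7:79821803-79861059, minus strand) encodes aminopeptidase N, a surface enzyme that trims peptides such as angiotensin III. It stood at 58.5, 56.1 and 60.6 CPM in the libraries labelled Sost-/-, against 37.7, 42.9 and 48.3 CPM in those labelled Sost+/+. The groups did not overlap, and the spread was narrow in the libraries labelled Sost-/-, with a coefficient of variation of 3.86%, against 12.3% in those labelled Sost+/+. The log2 fold change of 0.44 (SE 0.10), 95% interval 0.21 to 0.67, did not pass in edgeR (adjusted p = 0.0592) and passed in DESeq2 (adjusted p = 0.00940) and in edgeR without a filter on low counts (adjusted p = 0.0368). Of 5 other surface peptidase genes, 1 rose: Mme, the gene of neprilysin, was at 12.8, 13.03 and 11.4 CPM in the libraries labelled Sost-/- and 8.39, 7.43 and 6.95 CPM in those labelled Sost+/+ (log2 fold change 0.71 (SE 0.12), edgeR adjusted p = 0.0265). The call of Mme was absent in each of the 6 fits that left out 1 library. Over all tested genes, 2.18% rose. Higher without overlap were 3 of the 5 peptidase genes (Mme, Enpep and Ace), against 14.3% of all tested genes.

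Cd248 (chr19:5068078-5070682, plus strand) encodes endosialin, a membrane glycoprotein of pericytes and stromal fibroblasts. It was at 49.5, 45.4 and 54.9 CPM in the libraries labelled Sost-/- and 37.3, 56.1 and 47.6 CPM in those labelled Sost+/+, and both the highest and the lowest value belonged to the libraries labelled Sost+/+. The log2 fold change was 0.09 (SE 0.14), 95% interval -0.24 to 0.41 (edgeR adjusted p = 0.769), and it turned to -0.068 without WT replicate 1. Fibroblast markers, which cover cells that also use Pdgfrb, Cd248 and Anpep, summed to 4108 to 4962 CPM in the libraries labelled Sost-/- and 3720.3 to 3971 CPM in those labelled Sost+/+, without overlap. Of the 9 fibroblast markers 0 passed in edgeR, DESeq2 called 3 higher (Lum, Pdgfra and Col1a2; 4.96% of all its genes), 3 were higher without overlap (14.3% of all tested genes) and the median log2 fold change was 0.31; their part in the values of these 3 genes was not tested.

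Abcc9 (chr6:142587862-142702315, minus strand) encodes SUR2, the sulfonylurea receptor that forms ATP-sensitive potassium channels with the pore proteins of Kcnj8 in mural cells and of Kcnj11 in heart muscle. Its level was 282, 205 and 211 CPM in the libraries labelled Sost-/- and 204, 193 and 219 CPM in those labelled Sost+/+. KO 1 stood above the other 5 libraries, among which the groups overlapped. The log2 fold change was 0.18 (SE 0.13), 95% interval -0.12 to 0.48 (edgeR adjusted p = 0.476), and it was 0.018 without KO replicate 1. Its mural partner Kcnj8 was at 43.04, 40.7 and 38.4 CPM in KO 1 to 3 and 40.3, 40.9 and 39.1 CPM in WT 1 to 3, a log2 fold change of 0.02 (SE 0.08) with a 95% interval of -0.16 to 0.21. Kcnj11 averaged 129.8 ± 16.2 CPM in the libraries labelled Sost-/- and 157 ± 1.36 CPM in those labelled Sost+/+ (SD, n = 3 each), without overlap, and did not pass (log2 fold change -0.28 (SE 0.10), edgeR adjusted p = 0.178). Cardiomyocyte markers summed to 61846 to 77489 CPM in the libraries labelled Sost-/- and 90404 to 100187 CPM in those labelled Sost+/+, also without overlap; 0 of 12 passed in edgeR, DESeq2 called 8 lower (2.68% of all its genes), and 8 were lower without overlap (11.1% of all tested genes). The smallest p among them was that of Actn2 (log2 fold change -0.46 (SE 0.12), adjusted p = 0.0759 by edgeR and 0.000209 by DESeq2). The part of cardiomyocyte markers in the Abcc9 values was not tested.

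Rgs5 and Rgs4 are neighbours on chromosome 1 (chr1:169655501-169695813, plus strand; chr1:169741477-169747642, minus strand), with 45663 bases and 0 other protein-coding genes between them. Their products speed up the GTPase of G protein alpha subunits and so shorten signalling from receptors for vasoactive hormones. Rgs5, among the genes most used to mark pericytes, was at 168, 125 and 128 CPM in the libraries labelled Sost-/-, against 179, 158 and 146 CPM in those labelled Sost+/+. The groups overlapped through KO 1, and the log2 fold change of -0.20 (SE 0.13), 95% interval -0.50 to 0.10, did not pass (edgeR adjusted p = 0.425). The upper bound of that interval excludes a rise as large as the Cspg4 estimate.

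Rgs4 was at 23.02, 15.4 and 27.5 CPM in the libraries labelled Sost-/- and 19.6, 19.1 and 16.7 CPM in those labelled Sost+/+. Its spread in the libraries labelled Sost-/- was the widest of the 10 genes, with a coefficient of variation of 27.9% there against 8.36% in those labelled Sost+/+. The lowest value of all was KO 2 and the highest KO 3, so the groups overlapped (log2 fold change 0.25 (SE 0.19), 95% interval -0.17 to 0.67, edgeR adjusted p = 0.481). Without KO replicate 3 the log2 fold change was 0.057, and without KO replicate 2 it was 0.45. Of the other members of the same subfamily, 7 were in the table and 5 passed the filter on low counts. Of the 5, 0 passed the test, where 2.55% of all tested genes passed. Rgs2, which had the smallest p, was at -0.17 (SE 0.09) (edgeR adjusted p = 0.326).

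Vtn (chr11:78499091-78502324, plus strand) encodes vitronectin, an adhesive protein of plasma and matrix that is made in liver and, in mouse brain, by pericytes. It was at 28.9, 23.98 and 21.7 CPM in the libraries labelled Sost-/- and 35.4, 31.7 and 24.5 CPM in those labelled Sost+/+. WT 3 lay within the range of the libraries labelled Sost-/-, and the log2 fold change of -0.30 (SE 0.15), 95% interval -0.64 to 0.04, did not pass (edgeR adjusted p = 0.306). Hepatocyte markers were at or near 0: 5 of 5 were in the table, Fgb had 0 counts in every library, and the 5 summed to 0.370 to 0.467 CPM in the libraries labelled Sost-/- and 0.494 to 0.650 CPM in those labelled Sost+/+. Among the hepatocyte markers only Ttr passed the filter on low counts (log2 fold change -0.64 (SE 0.39), edgeR adjusted p = 0.394). Of 6 genes of the vitronectin system, which holds its integrin receptors and the plasminogen activator proteins, 1 rose. Over all tested genes, 2.18% rose. Higher without overlap were 2 of the 6 (Itgb3 and Itgb5), against 14.3% of all tested genes. Itgb3, the integrin beta-3 subunit, was at 24.6, 23.3 and 28.8 CPM in the libraries labelled Sost-/- and 13.9, 17.4 and 15.8 CPM in those labelled Sost+/+ (log2 fold change 0.70 (SE 0.12), edgeR adjusted p = 0.0248). The call of Itgb3 was lost without KO replicate 3, WT replicate 1 or WT replicate 3.

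Higd1b (chr11:102835849-102838040, plus strand) belongs to the hypoxia-inducible domain family of mitochondrial proteins and is a restricted marker of pericytes in mouse heart and lung. It was at 7.71, 7.01 and 7.66 CPM in the libraries labelled Sost-/-, against 12.2, 10.2 and 8.29 CPM in those labelled Sost+/+. These rest on 330, 284 and 321 counts in KO 1 to 3 and 543, 403 and 302 counts in WT 1 to 3. The groups did not overlap, and the log2 fold change of -0.46 (SE 0.16), 95% interval -0.81 to -0.11, did not pass (edgeR adjusted p = 0.151, and 0.0838 by DESeq2). Of its relatives, Higd1c had 0 counts in every library; Higd1a, with the smaller p of the other 2, was at -0.30 (SE 0.11) (edgeR adjusted p = 0.196).

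The 9 genes that did not pass lay on both sides of 0. Endothelial markers, which follow vessel content, summed to 950.2 to 1303 CPM in the libraries labelled Sost-/- and 1134 to 1298 CPM in those labelled Sost+/+. Of the 10, 0 passed in edgeR (2.55% of all tested genes passed) and 0 were without overlap (14.3% higher and 11.1% lower of all). The median log2 fold change was -0.12, and it was above 0 for 1 of the 10, against 51.3% of all tested genes. Tie1 had the smallest p, with a log2 fold change of -0.29 (SE 0.11) (edgeR adjusted p = 0.208). The part of endothelial markers in the values of Rgs5, Vtn and Higd1b was not tested.

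**Figure D2:**
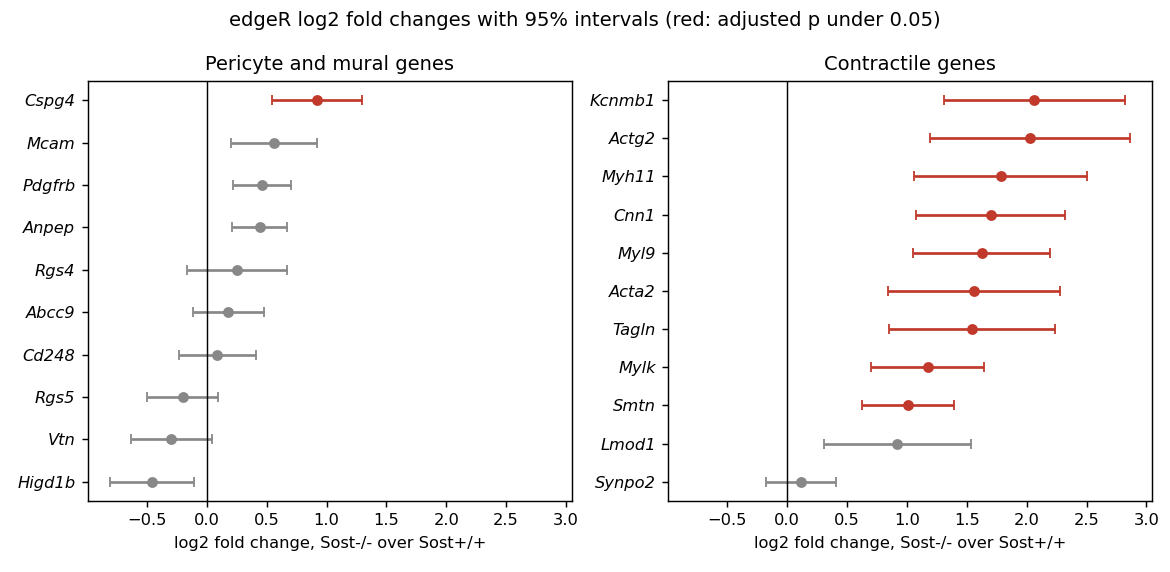
edgeR log2 fold changes, Sost-/- over Sost+/+ libraries, with 95% intervals for the 10 pericyte and mural genes (left) and 11 contractile genes (right); red points have an adjusted p under 0.05. Cspg4 is the 1 red point on the left, at 0.92, and 9 of 11 contractile genes are red, with Synpo2 and Lmod1 grey.

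Among 11 contractile genes, 9 rose and 0 fell, and 10 were higher without overlap, against 1, 0 and 3 of the 10 pericyte and mural genes. Over all tested genes, 2.18% rose, 0.371% fell and 14.3% were higher without overlap. The contractile median log2 fold change was 1.56. Myh11 (chr16:14194535-14291372, minus strand) was at 968, 707 and 1096 CPM in the libraries labelled Sost-/- and 208, 427 and 170.1 CPM in those labelled Sost+/+, a log2 fold change of 1.78 (SE 0.32) (edgeR adjusted p = 0.0279). Acta2, the smooth muscle actin gene, was at 1.56 (SE 0.32), Cnn1, calponin, at 1.70 (SE 0.28), and Myl9, a myosin light chain, at 1.62 (SE 0.26). The genes Actg2, Tagln, Mylk, Smtn and Kcnmb1 rose too, and their log2 fold changes were 2.03, 1.54, 1.17, 1.01 and 2.06. Lmod1 (log2 fold change 0.92 (SE 0.27), edgeR adjusted p = 0.114) and Synpo2 (0.12 (SE 0.13), adjusted p = 0.652) did not pass. The exons of Tagln share 62.4% of their bases with a gene on the opposite strand, and the strand setting of the counting is not given in the sources used here, so its value is uncertain; for Smtn the shared part is 16.3%. The contractile count was 3 with robust dispersion, 0 without KO replicate 3 or WT replicate 1 and 1 without WT replicate 3, where the gene called was Lmod1 and none of the 9. Myh11 itself lost its call with robust dispersion (adjusted p = 0.0664) and in the same 3 of 6 fits that left out 1 library, with log2 fold changes of 1.53 to 2.29 over the 6.

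The difference between each gene and Myh11 was tested as the log2 ratio of their CPM within a library, which does not depend on library scaling. The ratio was lower in every library labelled Sost-/- than in any labelled Sost+/+ for 10 of 10 genes, as it was for 93.2% of all tested genes. For Cspg4 it was -3.02, -2.84 and -3.09 in the libraries labelled Sost-/-, against -2.12, -2.49 and -1.53 in those labelled Sost+/+, a difference of -0.94 (SE 0.29). This is the difference nearest to 0 among the 10, beside a median of -1.87 over all tested genes. For Rgs5 it was -2.53, -2.50 and -3.10 in KO 1 to 3, against -0.22, -1.43 and -0.22 in WT 1 to 3, a difference of -2.09 (SE 0.45). Pdgfrb differed by -1.41 (SE 0.37), Mcam by -1.31 (SE 0.25) and Anpep by -1.43 (SE 0.46). At the other end were Vtn with -2.17 (SE 0.43) and Higd1b with -2.32 (SE 0.42). The exact two-sided permutation p was 0.1 for each of the 10, the smallest that the design allows. Cspg4 was higher in level in the libraries labelled Sost-/- and lower relative to Myh11.

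**Figure D3:**
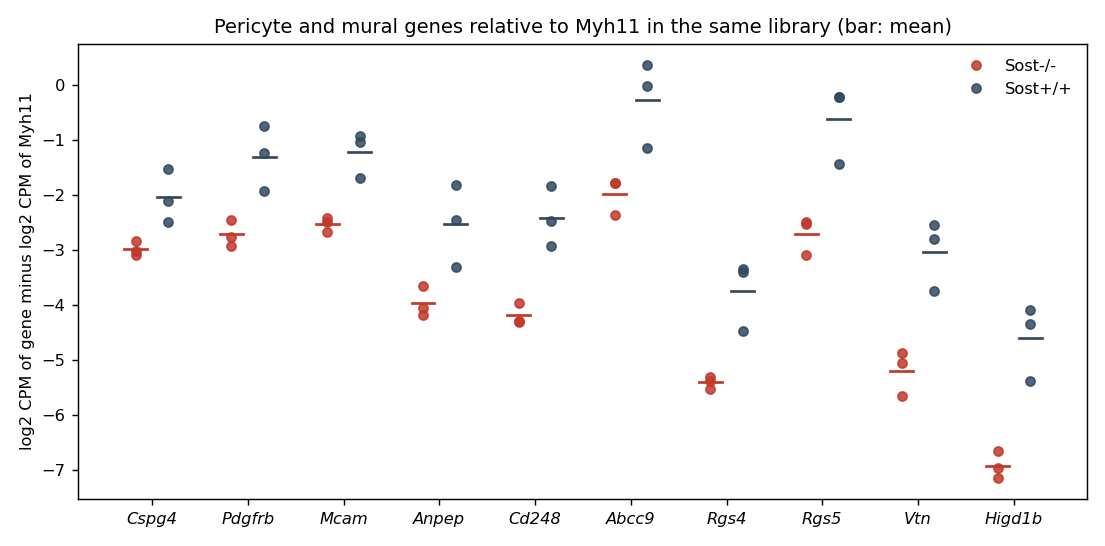
Log2 CPM of each gene minus log2 CPM of Myh11 in the same library, for 3 libraries labelled Sost-/- (red, left in each pair) and 3 labelled Sost+/+ (dark blue, right); bars are means. All 10 genes lie lower in the Sost-/- libraries, as do 93.2% of all tested genes; the means differ least for Cspg4 (-0.94) and most for Higd1b (-2.32).

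Levels of different genes were compared as CPM per kilobase of merged exons (GENCODE M21). In the libraries labelled Sost-/- Mcam was highest, with 47.3 ± 6.86, followed by Rgs5 with 30.8 ± 5.21, Abcc9 with 27.8 ± 5.12 and Pdgfrb with 25.3 ± 1.56 (SD, n = 3 each). Cd248 (19.2 ± 1.84), Anpep (14.1 ± 0.545), Vtn (12.3 ± 1.80), Cspg4 (9.68 ± 1.29), Higd1b (8.81 ± 0.464) and Rgs4 (7.09 ± 1.98) came after them. In the libraries labelled Sost+/+ Rgs5 was highest, with 35.4 ± 3.60, followed by Mcam with 32.2 ± 6.71, Abcc9 with 24.5 ± 1.58 and Pdgfrb with 18.3 ± 2.23. There Cd248 (18.04 ± 3.62), Vtn (15.03 ± 2.74), Higd1b (12.1 ± 2.29), Anpep (10.4 ± 1.28), Rgs4 (5.95 ± 0.498) and Cspg4 (5.11 ± 1.19) followed. Of 9 neighbouring pairs in each order, 6 had overlapping ranges of libraries in either group. Without overlap were, in the libraries labelled Sost-/-, Mcam over Rgs5, Pdgfrb over Cd248 and Cd248 over Anpep, and in those labelled Sost+/+ Mcam over Abcc9, Abcc9 over Pdgfrb and Anpep over Rgs4. With the longest transcript in place of merged exons the last 2 places in the libraries labelled Sost+/+ changed over, with Cspg4 at 7.51 and Rgs4 at 6.27. On the merged-exon scale Myh11 was at 122 ± 26.04 in the libraries labelled Sost-/- and 35.3 ± 18.3 in those labelled Sost+/+.

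A further 15 genes known from pericytes and other mural cells gave 4 that rose and 0 that fell in edgeR, where 2.18% of all tested genes rose and 0.371% fell, with a median log2 fold change of 0.13. DESeq2 called 6 higher and 0 lower, the same 4 with Heyl and Ebf1. Lamc3, a laminin gamma chain gene, was at 38.7, 27.7 and 41.3 CPM in the libraries labelled Sost-/- and 10.5, 16.3 and 13.1 CPM in those labelled Sost+/+ (log2 fold change 1.43 (SE 0.19), edgeR adjusted p = 0.0133). Gucy1a3 and Gucy1b3, listed under these older symbols, encode the subunits of the nitric oxide receptor guanylate cyclase of smooth muscle and pericytes and rose by log2 fold changes of 1.10 (SE 0.24) and 0.72 (SE 0.14). Tbx18, a transcription factor gene of mural cells and their precursors, rose as well (0.75 (SE 0.14)). Among the remaining 11, Heyl, a target gene of Notch signalling, had a log2 fold change of 0.66 (SE 0.17) (adjusted p = 0.0773 by edgeR and 0.00566 by DESeq2) and Ebf1, a transcription factor gene of pericytes and other stromal cells, 0.42 (SE 0.11) (adjusted p = 0.0879 by edgeR and 0.0389 by DESeq2), both higher without overlap. Art3 was lower without overlap, with a log2 fold change of -0.27 (SE 0.11) (adjusted p = 0.212 by edgeR and 0.112 by DESeq2). Of the 15, 6 were higher without overlap (14.3% of all tested genes) and 1 was lower (11.1% of all). Notch3, the mural Notch receptor, was at 0.25 (SE 0.17), and Foxs1, a forkhead factor gene of pericytes, at -0.34 (SE 0.24). Ndufa4l2 and Cox4i2, mitochondrial genes of pericytes, were at -0.08 (SE 0.10) and -0.04 (SE 0.12). Ednra was at -0.20 (SE 0.10), P2ry14 at -0.05 (SE 0.18), Steap4 at 0.13 (SE 0.11) and Kcnj8 at 0.02 (SE 0.08). Neither Art3 nor any of these others passed in either tool. The call of Gucy1a3 was lost with DESeq2 size factors, with the filter of 1 CPM in 3 libraries and with robust dispersion. The count was 1 (Lamc3) without KO replicate 1 or WT replicate 3, and 0 without KO replicate 3 or WT replicate 1.

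**Figure D4:**
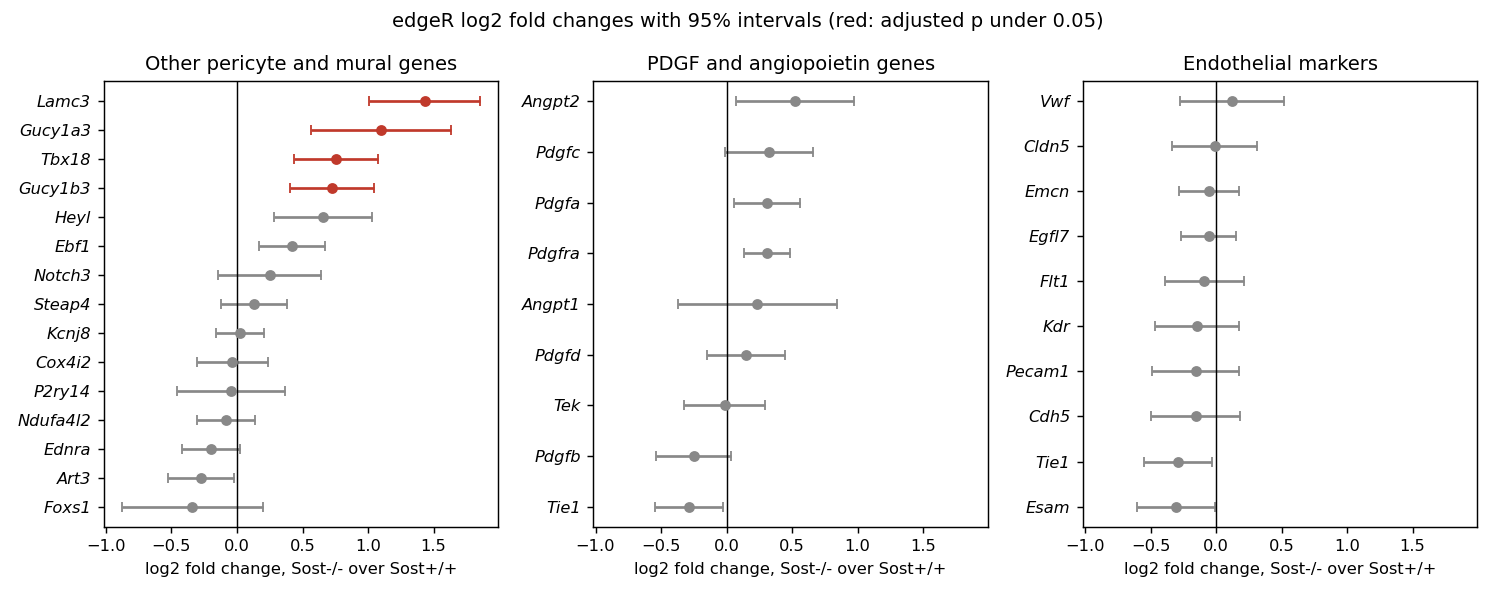
edgeR log2 fold changes, Sost-/- over Sost+/+ libraries, with 95% intervals for 15 other pericyte and mural genes, 9 PDGF and angiopoietin genes and 10 endothelial markers; red points have an adjusted p under 0.05. The red points are Lamc3, Gucy1a3, Tbx18 and Gucy1b3, and 0 endothelial markers are red.

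Among the 10 genes themselves, profiles over the 6 libraries were compared by the root mean square difference of log2 CPM after centring each gene. Pdgfrb and Anpep were nearest to each other, with 0.098, and Rgs5 and Vtn likewise, with 0.108. Higd1b was nearest to Vtn, with 0.142. Cspg4 and Higd1b lay farthest apart, with 0.752. Among 12731 other named genes at a mean of at least 1 CPM, the profiles closest to that of Pdgfrb were those of Prickle1 (0.025), Aff3 (0.035) and Lrp3 (0.043). Closest to Rgs5 were Fam134b (0.028), Slc25a11 (0.041) and Zmynd19 (0.042). These distances describe 6 libraries of 2 groups and carry no test.

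The summed levels of markers of 4 further cell types overlapped between the groups. Adipocyte markers summed to 529 to 1123 CPM in the libraries labelled Sost-/- and 402 to 749.7 CPM in those labelled Sost+/+, most of it from Fabp4 (log2 fold change 0.14 (SE 0.24)); 0 of 6 passed in edgeR or DESeq2, and the median log2 fold change was 1.41. Ucp1 of brown fat had the smallest p, with 5.33, 83.6 and 92.7 CPM in the libraries labelled Sost-/- and 6.19, 11.2 and 3.13 CPM in those labelled Sost+/+, and passed without KO replicate 1 and without a filter on low counts. KO 1 lay within the range of the libraries labelled Sost+/+. Schwann cell markers, relevant to Cspg4 since glial precursors carry it, summed to 52.3 to 76.7 CPM in the libraries labelled Sost-/- and 39.4 to 53.2 CPM in those labelled Sost+/+, with 1 of 6 higher in edgeR (Prx, log2 fold change 0.81 (SE 0.17), a call absent in limma-voom and in 5 of 6 fits that left out 1 library). Macrophage markers summed to 961 to 1594 CPM in the libraries labelled Sost-/- and 1069.8 to 1257 CPM in those labelled Sost+/+ (0 of 8 passed in edgeR, smallest p for Mrc1, log2 fold change 0.34 (SE 0.10), which DESeq2 called higher with an adjusted p of 0.0402) and mesothelial markers to 13.5 to 104 CPM in the libraries labelled Sost-/- and 18.2 to 35.6 CPM in those labelled Sost+/+ (0 of 5 passed in edgeR or DESeq2, smallest p for Lrrn4, log2 fold change 1.89 (SE 0.93)). Their part in the values of the 10 genes was not tested. Over all tested genes, 2.55% passed in edgeR and 2.18% rose.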

How the data were processed

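RNA of 6 aortic roots was sequenced with strand-preserving libraries (per the labels). The deposited table holds raw read counts per gene symbol; mm10, DRAGEN, HTSeq and DESeq2 appear in the submitters' processing notes. For versions, annotation release and strand setting the entry is: not given in the sources used here. A deposited table of normalized signal holds these counts divided by 1 factor per library, equal to DESeq2 size factors computed here.

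Samples were grouped by the genotype label, and replicate numbers follow accession order and pair nothing. Genes were kept with filterByExpr (minimum count 10, total 15), TMM-scaled, and tested in edgeR 4.0.16 under R 4.3.3. The SE is the absolute log2 fold change over the square root of F. Log2 CPM used a prior count of 2. Alternatives were other scalings and filters, robust dispersion, DESeq2 1.42.0, limma 3.58.1 (voom, and log2 of deposited normalized values plus 1) and leaving out each library in turn. Simulated data with known changes served to test the edgeR fit. Chi-square per degree of freedom between replicates was 32.3 to 61.5, so no library was a copy.

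The 10 genes, the other lists, the tests and the naming rule were chosen with earlier results of these data known. The rule named all 10 genes, the contractile genes, Sost, the members of each other list that passed (or the 1 of smallest p) and 3 nearest profiles each for Pdgfrb and Rgs5. Further genes of the lists were named after their values were seen. Of 131 list genes, 130 were in the table, 3 of them matched by RefSeq synonyms. Coordinates come from GENCODE M21 on GRCm38, the assembly of mm10.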

Additional observations from a re-analysis of the deposited data

How the results depend on the processing

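Cspg4 passed in all 9 alternatives that kept every library (adjusted p from 9.92e-06 to 0.0325). The count of pericyte and mural genes called was 1, but 3 without a filter on low counts (Cspg4, Pdgfrb and Anpep), 4 by DESeq2, and 0 to 1 when 1 library was left out. Genes called over the whole table were 385, 1159 by DESeq2 and 0 to 349 with 1 library left out. DESeq2 placed 65.0% of its calls on the higher side against 85.5% by edgeR. The contractile count was 9, but 3 with robust dispersion and 0 to 9 with 1 library left out. Cd248 ranged from -0.068 (without WT replicate 1) to 0.23 with 1 library left out, against 0.09 with all. Abcc9 ranged from 0.018 to 0.26 against 0.18, and Rgs4 from 0.057 to 0.45 against 0.25. Only Cd248 among the 10 genes changed direction. The ratio to Myh11 kept its direction in all 80 recalculations, and with the contractile mean in place of Myh11 it was -0.52 for Cspg4 and -1.89 for Higd1b. Myh11 itself kept a log2 fold change of at least 1.53 with 1 library left out. With all libraries, the ratio was lower without overlap for 93.2% of all tested genes. The kept direction is therefore not particular to the 10 genes. With the longest transcript in place of merged exons, 7 of 20 per-length levels moved by more than 1 SD, among them Cspg4 (14.2 in the libraries labelled Sost-/- and 7.51 in those labelled Sost+/+). The causes were not tested. No paired analysis was possible because the labels give the groups no shared replicate numbers. The lowest count of the 10 genes in any library was 284 (Higd1b in KO 2).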

Other observations

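Ratios between pairs of these genes within a library were computed after their values were seen and carry no test. The log2 ratio of Rgs5 to Pdgfrb CPM was 0.23, -0.04 and -0.17 in KO 1 to 3 (labelled Sost-/-), against 1.02, 0.49 and 0.53 in WT 1 to 3 (labelled Sost+/+), without overlap. That of Higd1b to Pdgfrb was -4.20, -4.19 and -4.23 in KO 1 to 3 and -2.85, -3.45 and -3.60 in WT 1 to 3. That of Vtn to Pdgfrb also lay lower in every library labelled Sost-/-, at -2.30, -2.42 and -2.73, against -1.31, -1.82 and -2.04 in WT 1 to 3. The ratio of Cspg4 to Pdgfrb ran the other way, with -0.26, -0.38 and -0.16 in KO 1 to 3 and -0.88, -0.56 and -0.77 in WT 1 to 3. The ratio of Mcam to Pdgfrb overlapped between the groups, at 0.27, 0.04 and 0.25 in KO 1 to 3 and 0.19, 0.24 and -0.17 in WT 1 to 3. That of Abcc9 to its channel partner Kcnj8 overlapped as well, at 2.71, 2.33 and 2.46 in KO 1 to 3 and 2.34, 2.24 and 2.49 in WT 1 to 3. Of these 6 pairs, 4 did not overlap between the groups, but the share over all genes was not computed. Pdgfrb, the denominator of all but the last pair, was itself higher without overlap in the libraries labelled Sost-/-, so the count has no base rate to be read against.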
